A study of Homo sapiens with 2 samples.

Results

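The ERBB receptors and the EGF-like growth factors that activate them were followed in OVSAHO cells, an established human line from a serous ovarian cancer. The set comprised 10 genes chosen by symbol, all found among the 26255 symbols of both deposited tables: the receptors EGFR, ERBB2, ERBB3 and ERBB4, the ligands AREG, EREG, HBEGF, TGFA and BTC, and the inhibitor ERRFI1. RNA-seq was available for 1 perturbed culture (genotype label SMARCA2 stable and SMARCA4 knockdown; named OVSAHO-A2-siA4 in the design text) and 1 control culture (genotype label WT; named OVSAHO-Ctrl-siNC). SMARCA2 and SMARCA4 are the alternative ATPases of the SWI/SNF chromatin remodelling complex. Both cultures were kept in 25 µM carboplatin for 2 days, so carboplatin is common to both and no untreated culture was compared. Whether a culture was a pool or a single clone is not stated in the labels. With 1 library per group there is no between-culture error and no p-value, and each difference below is between these 2 libraries.

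The ERBB proteins are receptor tyrosine kinases that work as dimers on the cell surface. EGFR binds EGF, TGFA, AREG, HBEGF, BTC, EREG and EPGN; ERBB3 and ERBB4 bind neuregulins, and ERBB4 also takes HBEGF, BTC and EREG; ERBB2 has no known ligand of its own and serves as the partner of the others. The ligands are made as membrane-anchored precursors that ADAM proteases cut free, and active receptors signal through adaptors to RAS, ERK and PI3K. ERRFI1 binds the kinase domain of the receptors and shuts it off. ERBB2 and its partners are widely studied in ovarian carcinoma.

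The low FPKM values put the library sizes at an estimated 8850000 fragments (perturbed) and 9050000 fragments (control). These are the sequenced depths only if no scaling between the libraries was applied, which is not stated. Levels are FPKM, fragment numbers scaled by transcript length and by library size, which can be compared between genes. SMARCA2 was at 2.60 FPKM in perturbed cells against 0.205 FPKM in control cells, and SMARCA4 at 4.49 against 27.9 FPKM, the directions that the series text gives. Of the 8 epithelial and serous markers examined, 7 were at 1 FPKM or more. By the 2-fold rule of size given below, WT1 was higher, at 5.52 against 1.53 FPKM, and KRT7 was lower, at 119 against 539.6 FPKM. The other 5 were within it, among them PAX8 at 42.1 against 21.9 FPKM and KRT8 at 462 against 488 FPKM. MUC16 was listed at 0 in perturbed cells and at 0.0608 FPKM in control cells. On its transcript of 43816 bases the control value was worth about 24.0 fragments. Summed over their lists, 5 fibroblast markers stood at 0.0985 against 0.154 FPKM and 4 endothelial markers at 0.430 against 0.367 FPKM. The leukocyte markers PTPRC and CD3E were listed at 0 in both libraries, and the sum of the 5 leukocyte markers, 11.4 against 35.2 FPKM, was nearly all CD68.

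RefSeq promoter windows are printed for 5 genes (GRCh38.p14, 250 bases before an annotated start to 50 after it, read along the gene). HBEGF and BTC are the ligands that differed most, and ERBB2 is the leading receptor. EREG and AREG are neighbours of BTC that were barely detected or listed at 0. Capitals mark a TATA box (TATAAA), a GC box (GGGCGG), an AP-1 site (TGANTCA), a cyclic AMP response element (TGACGTCA) or a TEAD site (GGAATG), each searched on both strands. The HBEGF window is chr5:140346554-140346853 on the minus strand, the BTC window chr4:74794474-74794773 on the minus strand, the ERBB2 window chr17:39687844-39688143 on the plus strand, the EREG window chr4:74364895-74365194 on the plus strand and the AREG window chr4:74444886-74445185 on the plus strand.
HBEGF: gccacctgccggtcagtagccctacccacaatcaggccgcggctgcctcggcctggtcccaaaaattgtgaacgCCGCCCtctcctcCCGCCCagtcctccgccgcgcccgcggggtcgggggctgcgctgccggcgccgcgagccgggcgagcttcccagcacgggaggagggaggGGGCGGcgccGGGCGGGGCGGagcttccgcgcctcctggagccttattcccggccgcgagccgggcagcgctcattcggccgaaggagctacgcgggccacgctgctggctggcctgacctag
BTC: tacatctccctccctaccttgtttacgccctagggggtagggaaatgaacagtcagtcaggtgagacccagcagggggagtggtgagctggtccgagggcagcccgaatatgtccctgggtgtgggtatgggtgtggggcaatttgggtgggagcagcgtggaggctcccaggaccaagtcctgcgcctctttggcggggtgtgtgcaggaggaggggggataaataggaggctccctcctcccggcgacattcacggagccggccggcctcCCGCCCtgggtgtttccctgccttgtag
ERBB2: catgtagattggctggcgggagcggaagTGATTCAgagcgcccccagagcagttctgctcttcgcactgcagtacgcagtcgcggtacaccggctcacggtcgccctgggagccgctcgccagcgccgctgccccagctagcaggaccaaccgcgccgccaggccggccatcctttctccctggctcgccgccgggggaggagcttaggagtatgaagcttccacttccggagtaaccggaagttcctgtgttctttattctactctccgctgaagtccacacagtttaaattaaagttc
EREG: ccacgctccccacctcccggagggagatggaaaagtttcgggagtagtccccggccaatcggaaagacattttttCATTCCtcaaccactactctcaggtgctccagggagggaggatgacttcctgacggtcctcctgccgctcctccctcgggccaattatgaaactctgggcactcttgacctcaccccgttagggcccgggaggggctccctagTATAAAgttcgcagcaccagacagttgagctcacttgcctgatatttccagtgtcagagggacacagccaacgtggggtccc
AREG: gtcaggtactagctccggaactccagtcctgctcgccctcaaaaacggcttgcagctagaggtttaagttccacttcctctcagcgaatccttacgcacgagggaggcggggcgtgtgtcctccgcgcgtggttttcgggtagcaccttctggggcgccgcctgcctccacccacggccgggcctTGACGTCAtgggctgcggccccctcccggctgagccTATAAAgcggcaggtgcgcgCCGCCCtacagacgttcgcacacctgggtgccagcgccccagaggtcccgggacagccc

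The HBEGF window held 5 GC boxes, the nearest pair overlapping by a base, with 38 CpG dinucleotides and 75.0% G+C. The BTC window held 1 GC box after the start, 12 CpG and 63.0% G+C. The ERBB2 window held 1 AP-1 match, 222 bases before the start, and no GC box. It is the window of 1 annotated start, while ERBB2 has 6 transcripts matched to RefSeq. Which start these cells use was not measured, so it may not be the ERBB2 promoter in use. EREG and AREG each had a TATA box, 32 and 29 bases before the start, and AREG had a cyclic AMP response element 65 bases before it. EREG also had a TEAD match, 175 bases before the start, and AREG 1 GC box. Among 35116 promoter windows of the same length, 45.0% held the GC box, 11.5% the TATA box, 7.71% the AP-1 letters, 1.85% the cyclic AMP response element and 14.0% the TEAD letters, and the median window had 14 CpG. Windows were found for 9 of the 10 genes, ERBB3 having none in the table. A match is a string of letters, not a measured site, and the binding of any factor was not measured.

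HBEGF, the heparin-binding ligand of EGFR and ERBB4, was the most abundant member and the only one lower by the rule of size used here. It was at 31.2 FPKM in perturbed cells and 66.6 FPKM in control cells. This was 2.13-fold lower, with a 95% counting interval of 1.93 to 2.35 from about 605 and 1318 fragments. The rule counts a gene as higher or lower when it is at 1 FPKM or more in a library and its log2((FPKM + 1) / (FPKM + 1)), perturbed over control, is at least 1 or at most -1; HBEGF had -1.07. Over all 11785 genes at that level, 7.61% were lower and 7.85% were higher, 15.5% in all. The direction of HBEGF was the same under every scaling tried, but the call lay close to the threshold: the log2 ratio was -0.93 with each library scaled to a common sum, -0.97 when centred on the median gene, -0.98 with a pseudocount of 5 FPKM and -0.79 with trends on transcript length, base composition and level removed. Counting intervals here cover counting error only, and amplified copies are not independent molecules. In RNA from a whole culture, fewer cells that express a gene and less RNA per cell cannot be told apart.

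BTC, betacellulin, a ligand of EGFR and ERBB4, was the only member higher by the rule. It was at 3.02 FPKM in perturbed cells and 0.886 FPKM in control cells, about 69.9 and 21.0 fragments. The difference was 3.41-fold, with a counting interval of 2.07 to 5.84, and the log2 ratio was 1.09. It passed the 1 FPKM filter through the perturbed library alone, where it was high, so under a filter of 1 FPKM in both libraries it is not counted. Its log2 ratio stayed above 1 under common-sum scaling (1.22), median centring (1.19) and removal of the trends (1.12), and was 0.45 with a pseudocount of 5 FPKM. The HBEGF level was 10.3 times that of BTC in perturbed cells against 75.2 times in the control.

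**Figure D1:**
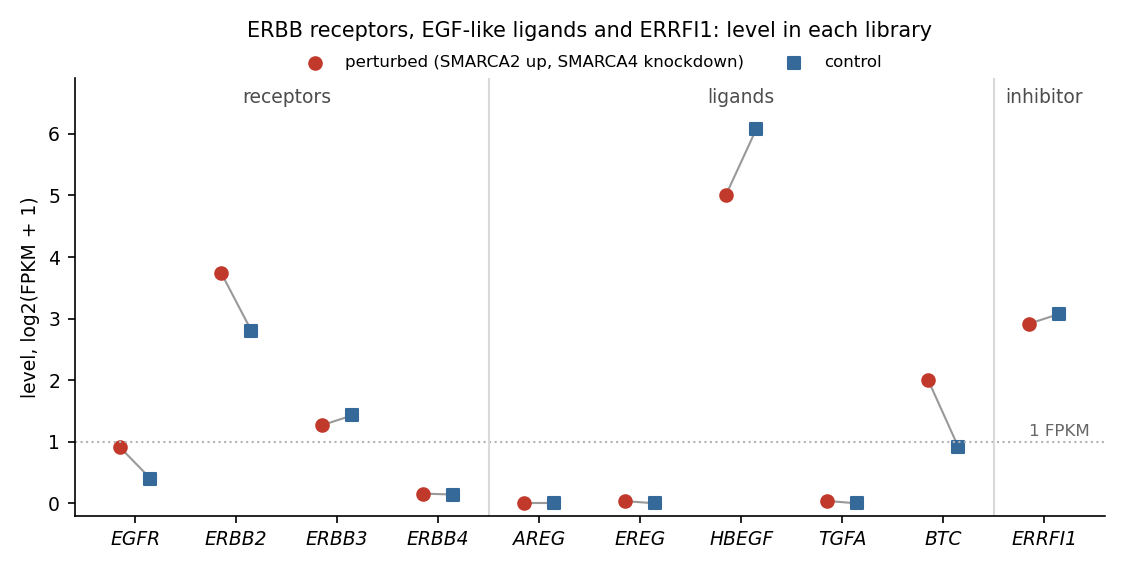
Level of each of the 10 genes, log2(FPKM + 1), in the perturbed library (circles) and the control library (squares), 1 library per group, with a line joining the 2 values of a gene and a dotted line at 1 FPKM. The level of HBEGF is lower and those of BTC, ERBB2 and EGFR are higher in the perturbed library, with only HBEGF and BTC past the 2-fold rule. AREG, EREG, TGFA and ERBB4 lie near 0 in both.

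The other ligands among the members were at the floor of detection. AREG, amphiregulin, was listed at 0 in both libraries, where 3 fragments would have been 0.326 FPKM in perturbed cells and 0.319 FPKM in control cells. The build named by the submitters, hg19, holds another near-identical copy of AREG, and how fragments fitting both were counted is not given, so its 0 is uncertain. EREG, epiregulin, was at 0.0255 FPKM in perturbed cells and listed at 0 in the control. TGFA, transforming growth factor alpha, was at 0.0275 FPKM in perturbed cells and listed at 0 in the control. Each of those values was worth about 1 fragment, and no fold is given for them.

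ERBB2 was the most abundant receptor in both libraries. It was at 12.4 FPKM in perturbed cells and 5.98 FPKM in control cells, about 504 and 248 fragments, a 2.07-fold difference (1.78 to 2.43). Its log2 ratio with the pseudocount was 0.94, just inside the rule, and 8.99% of the genes at 1 FPKM or more had a higher ratio. ERBB2 passed the rule with a pseudocount of 0.1 FPKM (1.04), with common-sum scaling (1.08) and with median centring (1.04), and did not with a trimmed mean of ratios (0.94), with the trends removed (0.89) or with a pseudocount of 5 FPKM (0.66). The 6 transcripts of ERBB2 matched to RefSeq differ in length, and with the shortest the interval was 1.66 to 2.58.

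EGFR was the receptor with the largest fold and a low level. It was at 0.878 FPKM in perturbed cells and 0.322 FPKM in control cells, under 1 FPKM in both and therefore not counted by the rule. On its longest transcript, 9821 bases, these were about 74.8 and 28.0 fragments, a 2.73-fold difference (1.75 to 4.39). On its shortest matched transcript, 1570 bases, the same levels would rest on 10.6 and 3.99 fragments, with an interval of 0.833 to 12.1 that includes no difference. Long transcripts as a class were higher in the perturbed library: the 1490 genes with a transcript of 6 kb or more had a median log2 ratio of 0.31, and 14.5% of them were higher. With trends on length, base composition and level removed, the log2 ratio of EGFR was -0.10, against 0.51 without. The trends were fitted on genes at 1 FPKM or more in a library, and EGFR was not among them. Fitted genes at its mean level had passed that filter through 1 library alone. Over all genes, 1055 did so through the perturbed library and 514 through the control, so the -0.10 also carries the effect of the filter. The part of transcript length in the EGFR difference was not tested. EGFR-AS1, an antisense gene of the locus, was listed at 0 in perturbed cells and at 0.0422 FPKM in control cells; the library kit does not mark strand.

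ERBB3, a neuregulin receptor whose own kinase is weak, was at 1.41 FPKM in perturbed cells and 1.69 FPKM in control cells. The ratio was 0.834 with an interval of 0.594 to 1.14 on its longest transcript and 0.309 to 1.94 on its shortest. No difference was detectable at this depth. With the trends removed the log2 ratio of ERBB3 was -0.46, against -0.16 without. ERBB4 was at 0.116 FPKM in perturbed cells and 0.104 FPKM in control cells. The 2 values stand in a ratio of 12 to 11 whole fragments, and the interval of 0.450 to 2.79 leaves a difference of over 2-fold either way undetectable. ERRFI1, the inhibitor, was at 6.55 FPKM in perturbed cells and 7.43 FPKM in control cells, about 168 and 195 fragments. Its ratio was 0.882 with an interval of 0.712 to 1.09, again no detectable difference.

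Of the 10 genes, 5 were at 1 FPKM or more in a library, namely ERBB2, ERBB3, HBEGF, BTC and ERRFI1, and of these BTC was higher, HBEGF lower and 3 within the rule. The other 5 did not pass the filter. The median log2 ratio of all 10 was 0.03, against 0.00 for all 26255 genes, with low genes held near 0 by the pseudocount. Over the 5 that passed it was -0.16, against -0.06 for all genes that passed.

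**Figure D2:**
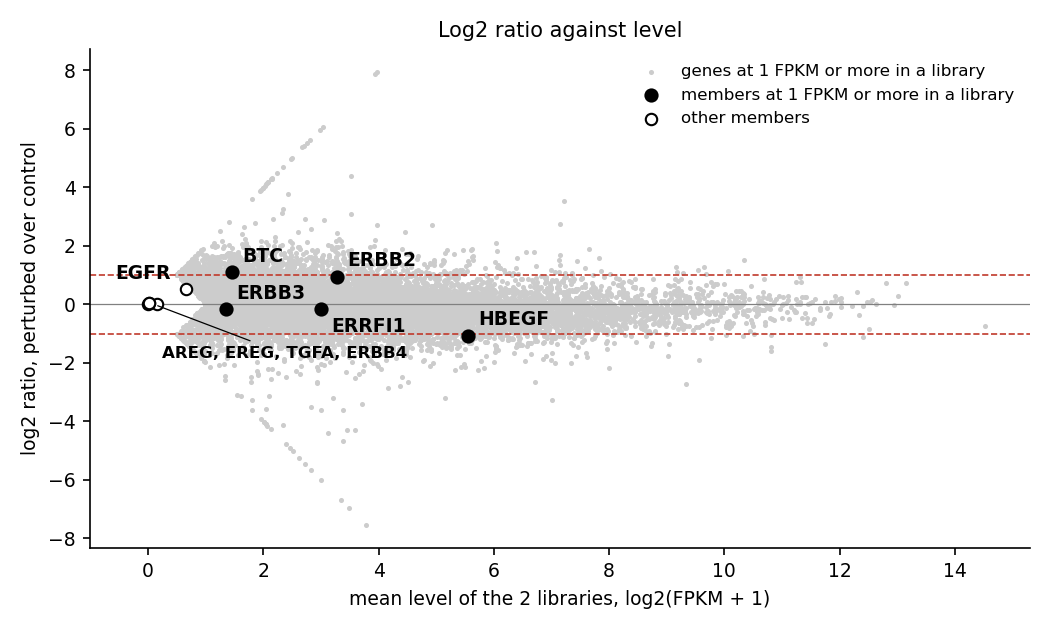
Log2 ratio, perturbed over control, against the mean log2(FPKM + 1) of the 2 libraries. Grey dots are the 11785 genes at 1 FPKM or more in a library, filled circles the 5 members that reach it, open circles the other 5, and dashed lines the 2-fold rule. BTC lies just above the upper line, ERBB2 just below it and HBEGF just below the lower line, all within the cloud of genes of like level.

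The make-up of the ligand pool differed with the HBEGF, NRG1 and BTC levels. Over the 5 ligands above and the other EGF-family ligands EGF, EPGN and the neuregulins NRG1 to NRG4, 11 genes in all, the summed level was 42.6 FPKM in perturbed cells and 71.3 FPKM in control cells. HBEGF made up 73.3% of the sum in perturbed cells and 93.5% in the control. NRG1, neuregulin 1, a ligand of ERBB3 and ERBB4, made up 17.8% against 4.76%, and BTC 7.08% against 1.24%. HBEGF led the ligands in both libraries, and these shares are of RNA levels, with no error between cultures.

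Among the receptors, summed levels were 14.8 FPKM in perturbed cells and 8.10 FPKM in control cells. ERBB2 made up 83.7% in perturbed cells and 73.8% in the control, and ERBB3 9.54% against 20.9%. The ERBB2 level was 8.78 times that of ERBB3 in perturbed cells and 3.53 times in the control. The order ERBB2, ERBB3, EGFR, ERBB4 was the same in both libraries.

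**Figure D3:**
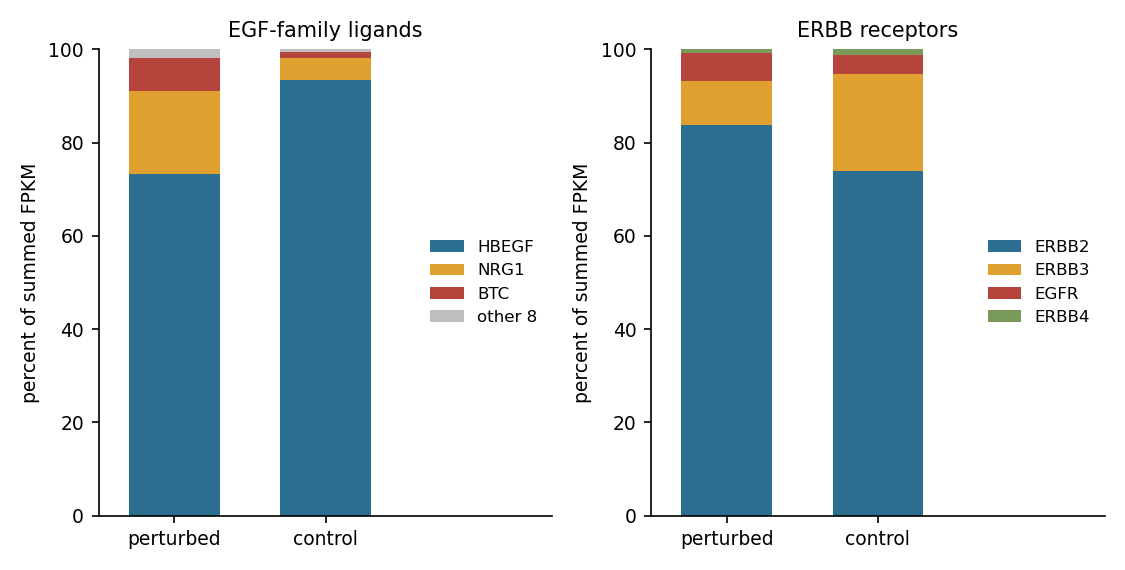
Percent of the summed FPKM held by each gene in the perturbed and control libraries, for 11 EGF-family ligands (left) and the 4 ERBB receptors (right), 1 library per bar. The HBEGF share is 73.3% in perturbed cells and 93.5% in the control, and the ERBB2 share 83.7% and 73.8%.

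Beyond the 10 members, 51 other genes of ERBB signalling in 5 lists were examined, all measured, of which 41 were at 1 FPKM or more in a library. Of these, 4 were higher, LRIG1, SOS1, ADAM17 and SPRY4, and 2 were lower, FOSL1 and SHC1, against 7.85% higher and 7.61% lower over all genes. All 51 had a median log2 ratio of 0.04, against 0.00 for all 26255 genes, and the 41 had 0.20, against -0.06 for all genes at that level. Of the 41, 5, LRIG1 and SOS1 included, passed the filter through the perturbed library alone and none through the control alone.

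Among the 6 other ligands, NRG1 alone reached 1 FPKM. It was at 7.58 FPKM in perturbed cells and 3.39 FPKM in control cells, 2.24-fold higher (1.87 to 2.69 on its longest transcript, and 1.10 to 4.63 on its shortest), with a log2 ratio of 0.97 that lay just inside the rule. NRG2 was at 0.384 against 0.0627 FPKM, a 6.13-fold ratio that rested on about 12.0 and 2.00 fragments (1.37 to 56.4). EGF and EPGN were each under 0.1 FPKM in both libraries and NRG4 under 0.3 FPKM, and NRG3 was listed at 0 in both.

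Of the 7 genes of ligand shedding, 6 were at 1 FPKM or more and 1 was higher. ADAM17, the protease that frees HBEGF, TGFA, AREG and EREG from the membrane, was at 6.40 FPKM in perturbed cells and 2.40 FPKM in control cells, 2.66-fold higher (2.08 to 3.43). ADAM10, which cuts BTC and EGF, was at 5.04 against 2.58 FPKM, a log2 ratio of 0.75 that did not pass the rule. Of the iRhoms that carry ADAM17 to the surface, RHBDF2 was at 8.77 against 5.42 FPKM and RHBDF1 at 4.93 against 7.83 FPKM, neither past the rule. The median log2 ratio was 0.03 over the 7 and 0.32 over the 6.

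Of the 12 genes of receptor turnover and inhibition, all at 1 FPKM or more, LRIG1 was the only one past the rule. LRIG1, a transmembrane protein that promotes the breakdown of ERBB receptors, was at 5.57 FPKM in perturbed cells and 0.944 FPKM in control cells, 5.90-fold higher (4.29 to 8.42). Its paralog LRIG3 had a log2 ratio of 0.02. RNF41, a ubiquitin ligase that acts on ERBB3, was at 14.9 against 7.03 FPKM, with a log2 ratio of 0.98 just inside the rule. The ubiquitin ligase genes CBL and CBLB, whose products mark active EGFR for degradation, gave 1.23 against 1.41 FPKM (CBL) and 3.17 against 1.96 FPKM (CBLB). The median log2 ratio of the 12 was 0.19.

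Of 13 adaptors and effectors, 10 were at 1 FPKM or more, and they split. SHC1, the adaptor that couples the receptors to GRB2, was at 19.0 FPKM in perturbed cells and 45.5 FPKM in control cells, 2.40-fold lower (2.17 to 2.66). SOS1, the exchange factor that loads RAS with GTP, was at 1.90 against 0.163 FPKM, 11.7-fold higher (6.47 to 23.1), on about 137 and 12.0 fragments. Its longest transcript has 8314 bases, in the class of long transcripts described for EGFR. With the trends on length, base composition and level removed together, SOS1 no longer passed the rule. SOS1 had passed the filter through the perturbed library alone, and as for EGFR the trend at its mean level also carries the effect of the filter. The part of transcript length in the SOS1 difference was not tested. GRB2 was at 53.8 against 45.8 FPKM. ERBB2IP, which encodes the ERBB2-binding protein erbin, was at 2.51 against 0.931 FPKM, and GRB7 at 3.38 against 6.37 FPKM, neither past the rule. The median log2 ratio was 0.00 over the 13 and 0.06 over the 10.

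Of 13 ERK-responsive genes, 12 were at 1 FPKM or more, with 1 higher and 1 lower. FOSL1, the AP-1 subunit FRA1, was at 5.65 FPKM in perturbed cells and 46.9 FPKM in control cells, 8.31-fold lower (6.48 to 10.6). SPRY4, a feedback inhibitor of the pathway, was at 4.94 against 1.79 FPKM, 2.75-fold higher (2.11 to 3.62), and was within the rule once the trends were removed. DUSP6, the ERK phosphatase, was at 8.83 against 7.30 FPKM, and IER3 at 61.7 against 59.9 FPKM, neither past the rule. ETV4, at 22.1 against 39.6 FPKM (log2 ratio -0.81), and EGR1, at 4.65 against 2.14 FPKM (0.85), were also within it. The median log2 ratio was 0.20 both over the 13 and over the 12, of which 8 were above 0 and 4 below.

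**Figure D4:**
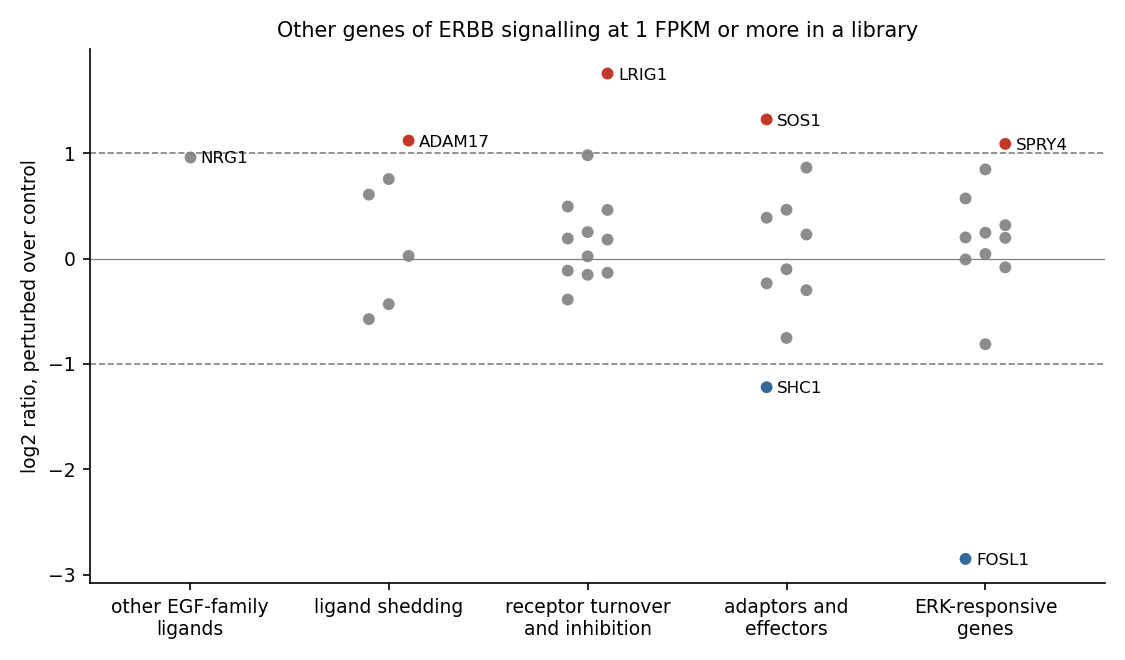
Log2 ratio, perturbed over control, of the 41 other genes at 1 FPKM or more in a library, in 5 lists, 1 dot per gene, with dashed lines at the 2-fold rule and sideways spread only to separate dots. The 4 genes above the upper line (LRIG1, SOS1, ADAM17 and SPRY4) and the 2 below the lower line (FOSL1 and SHC1) are named, with NRG1 just inside the upper line.

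The genes next to the members on their chromosomes were compared, ordered by their RefSeq start positions on GRCh38.p14. Distances between genes were not used. The ligand genes EPGN, EREG, AREG and BTC follow each other on chromosome 4, and BTC alone of them was listed above 0.1 FPKM. The 0 of AREG is uncertain, as given above, and 3 fragments of it would have been over 0.3 FPKM. PARM1, on the other side of BTC, had a log2 ratio of 0.03. Next to ERBB2 on chromosome 17, MIEN1 was at 147 against 259 FPKM and the adaptor gene GRB7 at 3.38 against 6.37 FPKM, both with a ratio below 1, while PGAP3, on the other side, was at 3.71 against 2.17 FPKM. HBEGF, on chromosome 5, lay between PFDN1, at 230 against 255 FPKM, and SLC4A9, at 0.192 against 0.311 FPKM. Over the 3 nearest measured genes on each side of the 10 members, 48 distinct neighbours that are not members, 29 were at 1 FPKM or more. Of these, 2 were higher (IGIP near HBEGF and RERE near ERRFI1) and 1 was lower (LANCL1 near ERBB4), against 7.85% higher and 7.61% lower over all genes. IGIP, at 1.31 against 0.0414 FPKM, passed the filter through the perturbed library alone.

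**Figure D5:**
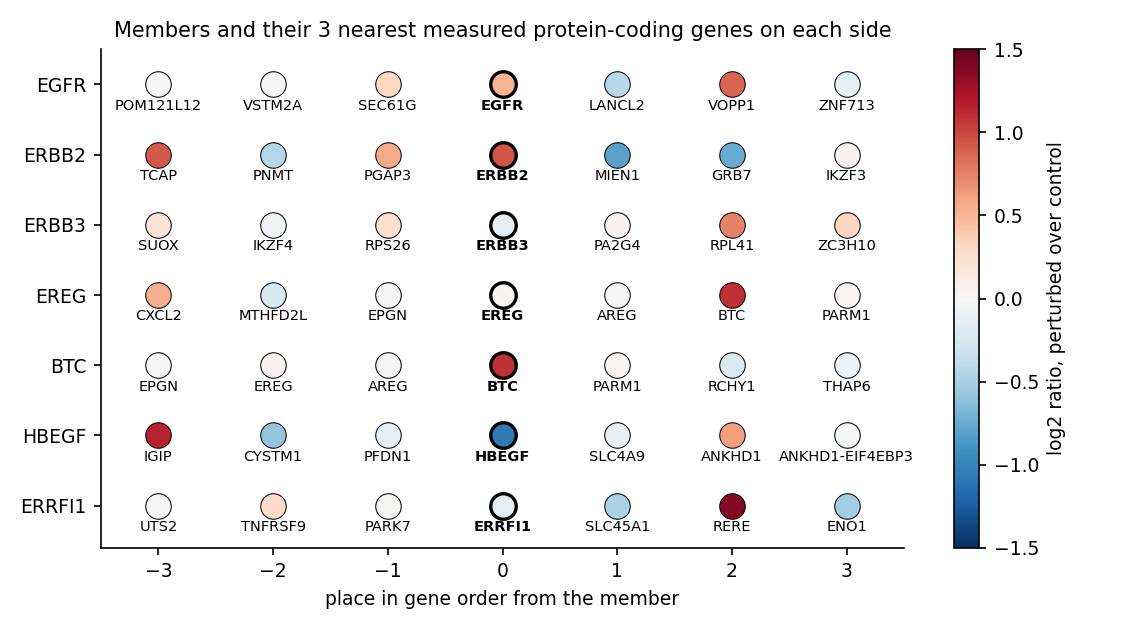
Log2 ratio, perturbed over control (colour), of 7 members (thick rims) and their 3 nearest measured protein-coding genes on each side in RefSeq gene order. BTC is the only strongly coloured gene of its stretch, and the neighbours of ERBB2 lie on both sides of 0.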

How the data were processed

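RNA-seq levels were available for 1 perturbed and 1 control library. The labels' protocols give Qiagen's miRNeasy Micro for RNA, SMART-Seq HT for cDNA and Nextera XT for the libraries. The deposited files give FPKM per gene symbol, per the file headers. The build hg19, Cuffdiff 2.2.1, SAMtools 0.1.18, Bowtie2 2.2.8 and TopHat2 2.1.1 are listed in the submitters' processing notes. No source used here gives the annotation, the filters or any scaling between the 2 tables.

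Genes were described with log2((FPKM + 1) / (FPKM + 1)), perturbed over control; the pseudocount understates the change of low genes. Folds are ratios of FPKM without it. The value of 1 fragment was found from low FPKM values over 11323 genes with 1 RefSeq-matched GENCODE 29 transcript, which gave 8850000 and 9050000 fragments and an effective length 200 bases below the transcript. Approximate fragments on the longest matched transcript gave exact binomial (Clopper-Pearson) 95% intervals of folds. The members, the 5 lists, the rule of size and the alternatives were chosen with earlier results of these data known. Named genes were all members, list genes past the rule or else the most abundant, and a few others chosen after their values were seen. Alternatives were other pseudocounts, scalings, filters and rules, and cubic trends on transcript length, base composition and level removed. Python 3.11.15, SciPy 1.17.1 and pandas 2.3.3 were used.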

Additional observations from a re-analysis of the deposited data

How the results depend on the processing

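The counts depended on the rule. With a pseudocount of 0.1 FPKM, 2 members (ERBB2 and BTC), 8 other pathway genes and 1630 of all genes were higher. With 5 FPKM, 0 members were higher and 0 lower, 0 pathway genes were higher, and 219 of all genes were higher and 380 lower. With each library scaled to a common sum, and with centring on the median gene, 2 members were higher (ERBB2 and BTC) and 0 lower, and the share of higher genes among all genes called was 64.7% and 62.9%, against 50.8% as deposited. With a filter of 5 FPKM in a library, 0 members, 2 pathway genes and 546 of all genes were higher, the last 6.96% of 7845 tested. With 1 FPKM in both, these were 0, 2 and 557, the last 5.45% of 10216 tested. The share of all genes higher was 7.85% of 11785 with 1 FPKM in a library and 3.52% of 26255 with no filter. Under a 1.5-fold rule, 2 members, 10 pathway genes and 2253 of all genes were higher, and 4 pathway genes and 2505 of all genes were lower. Under a 4-fold rule, 0 members were higher and 0 lower, 0 pathway genes were higher and 1, FOSL1, was lower, and 71 of all genes were higher and 84 lower. With trends on transcript length, base composition and level removed, 0 members were lower, BTC was still higher and 2 pathway genes, ADAM17 and LRIG1, were higher. SHC1 and FOSL1 were lower in every setting except the 4-fold rule, which kept FOSL1 only. A trimmed mean of ratios and no filter changed none of the members or pathway genes called. Beyond the construction of each setting, the cause was not tested. No paired analysis was possible because each group had 1 library, and leaving out a library was not possible for the same reason. Depth limits what can be said of AREG, EREG, TGFA and ERBB4.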
